A study of Rattus norvegicus with 6 samples.

Results

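The enzymes and granule membrane proteins that turn prohormones into secreted peptides were examined in rat pituitary organ cultures given GnRH and in control cultures. GnRH, or gonadotropin-releasing hormone, comes from the hypothalamus and drives the gonadotropes, which secrete LH and FSH. The genes considered were the convertases Pcsk1, Pcsk2 and Furin, the carboxypeptidases Cpe and Cpd, the amidating enzyme Pam and the granule membrane proteins Ptprn and Ptprn2, 8 in all. Every probe set whose array annotation gave only 1 of these symbols was taken, which made 10 probe sets of 31042 and 7 genes of 14217. Pam had 3 probe sets, Cpd had 2 and the other genes had 1 each. No probe set was listed for Pcsk1, which was not analysed here.

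The study had 3 samples of rat pituitary organ culture given 10 nM GnRH and 3 control samples, with 1 array per sample. For both groups, the strain, age and sex of the animals and the length of culture and treatment were not stated in the labels. Whether the samples of a group were separate cultures or animals was not stated either. Xist, a female-specific RNA described below, had a log2 intensity of 9.77 in control 3, against 3.91 and 3.66 in the other controls. Control 3 was therefore not a repeat of the same RNA as the other controls, and the spread among controls was not technical alone. The spread among the GnRH arrays, and between the other controls, may still be technical alone, which limits the p-values. Whole-organ RNA mixes all cell types of the gland, and fewer cells of a type cannot be told apart from less RNA per cell.

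Most peptide hormones are made as inactive precursors that are cut on the carboxyl side of pairs of basic residues by proprotein convertases. Furin works mainly in the trans-Golgi network, whereas Pcsk1 and Pcsk2 work in the maturing secretory granules of endocrine cells. Carboxypeptidase E then trims the exposed basic residues in granules, carboxypeptidase D does so mainly in the trans-Golgi network, and Pam turns a terminal glycine into the amide that many peptides need for activity. Ptprn (also called IA-2 or ICA512) and Ptprn2 (phogrin) span the membrane of dense-core granules. In the pituitary, the enzymes are best known for cutting pro-opiomelanocortin into ACTH in corticotropes and, with Pcsk2, into alpha-MSH in melanotropes.

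The 5′ sequences of Ptprn and Pam are shown first, because both encode granule membrane proteins with bright probe sets on which all 3 GnRH arrays lay above all 3 controls. The windows run from 250 bases before to 50 bases after the annotated start, come from RefSeq on build GRCr8 and are written along the gene's strand. Capitals mark the letters TGACG or its reverse complement CGTCA, the core of a cAMP response element half-site. The Ptprn window is chr9:84204774-84205073 (minus strand) and the Pam window is chr9:105570118-105570417 (plus strand). The window of Cpe, whose arrays overlapped, is chr16:29796457-29796756 (plus strand) and stands beside them for comparison.
Ptprn: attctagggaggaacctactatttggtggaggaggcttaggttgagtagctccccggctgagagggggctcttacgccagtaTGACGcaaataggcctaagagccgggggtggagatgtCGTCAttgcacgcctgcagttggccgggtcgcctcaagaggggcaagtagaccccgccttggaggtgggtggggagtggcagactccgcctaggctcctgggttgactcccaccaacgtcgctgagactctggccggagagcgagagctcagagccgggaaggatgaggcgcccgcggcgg
Pam: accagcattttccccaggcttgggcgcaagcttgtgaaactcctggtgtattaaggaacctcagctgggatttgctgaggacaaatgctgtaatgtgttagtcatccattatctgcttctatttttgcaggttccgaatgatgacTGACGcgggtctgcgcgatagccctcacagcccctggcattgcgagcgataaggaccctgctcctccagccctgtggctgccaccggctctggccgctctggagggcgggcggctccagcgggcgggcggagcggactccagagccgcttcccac
Cpe: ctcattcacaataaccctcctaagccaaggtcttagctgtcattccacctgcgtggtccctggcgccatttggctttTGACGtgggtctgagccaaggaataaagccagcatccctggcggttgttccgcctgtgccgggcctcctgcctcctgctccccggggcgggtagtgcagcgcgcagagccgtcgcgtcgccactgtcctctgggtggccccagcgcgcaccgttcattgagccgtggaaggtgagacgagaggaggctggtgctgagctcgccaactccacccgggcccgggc

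A 5′ window was matched for 5 of the 8 genes, namely Pcsk2, Cpe, Pam, Ptprn and Ptprn2. TGACG on either strand was found in 4 of the 5 windows, all but that of Ptprn2, against 21.2% of all 33469 windows in the table. The 5 windows held from 59.3% (Pam) to 73.3% (Pcsk2) G and C, and the shares over all windows were not matched for this. The Ptprn window held it at 2 places, with first bases at -168 and -131 from the start. The whole palindrome TGACGTCA, which contains TGACG, was in 0 of the 5 windows and in 1.83% of all windows. The AP-1 letters TGANTCA were also in 0 of the 5, against 7.33% of all windows. The letters GCGNGGGCG, bound by Egr factors, were in the window of Pcsk2 alone among the 5 and in 4.98% of all windows. The GC box GGGCGG, which can overlap the Egr letters, was in 4 of the 5 windows, all but that of Ptprn, against 33.1% of all windows. These matches describe the letters of the windows and show no binding.

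The arrays differed in ways that touch the members. Of the controls, replicate 3 stood apart: its log2 values correlated at 0.983 and 0.986 with controls 1 and 2 across probe sets, against 0.988 to 0.991 with the GnRH arrays. Xist, the female-specific RNA of X inactivation, had log2 intensities of 9.73, 9.16 and 9.49 in the GnRH arrays and 3.91, 3.66 and 9.77 in controls 1, 2 and 3 on its brightest probe set. Leaving out control 3 therefore sets high-Xist against low-Xist arrays, while the comparison with control 3 alone stays among high-Xist arrays but has 1 control, so that its spread comes from the GnRH arrays and the lone control is assumed to vary like them. Both are given below where they change a result, and the part of the Xist division in the results was not tested. Of the hormone genes of the labelled tissue, Prl, Lhb, Tshb and Fshb all lay at percentile 98.6 of brightness or above. They encode prolactin and the beta subunits of LH, TSH and FSH. Pomc, which encodes pro-opiomelanocortin, lay lower, at percentile 85.2.

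With GnRH, the granule membrane protein Ptprn rose, but only just past the threshold (limma adjusted p = 0.0484). Its call was lost when any array other than control 3 was left out. Furin and Pam lay higher without passing the test, and Cpe, Ptprn2, Cpd and Pcsk2 did not separate from controls by the same test. Values are RMA intensities on a log2 scale, and each log2 fold change is GnRH minus control. By limma with Benjamini-Hochberg adjustment over all probe sets and a threshold of 0.05, 1 of the 10 probe sets rose, against 0.422% of all probe sets. None of the 10 fell, against 0.0419%. At an unadjusted limma p under 0.05, 3 of 10 were higher, against 6.6%, and 1 was lower, against 5.66%. The 3 GnRH arrays lay above all controls in 4 of 10 probe sets, against 7.06%, and below all controls in 2 of 10, against 9.62%. The log2 fold change was above 0 in 6 of 10, against 42.6% of all probe sets, with a median of 0.14 against -0.02.

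Some markers of gonadotropes and lactotropes also rose in these arrays, where 0.556% of all genes rose past the threshold. Of the 5 gonadotrope markers, Gnrhr, the GnRH receptor, rose (log2 fold change 1.12, limma adjusted p = 0.0215). So did Nr5a1, a gonadotrope transcription factor (0.54, limma adjusted p = 0.0471). The hormone genes Lhb (0.34), Cga (0.18) and Fshb (-0.30) did not pass, and each overlapped between groups. Against control 3 alone, Gnrhr and Nr5a1 differed by 0.89 and 0.49, and Lhb, Cga and Fshb by -0.045, -0.0072 and 0.26. The summed linear intensity of the 5 markers was 14646 to 18129 with GnRH and 12965 to 16579 in controls. Of the 2 lactotrope markers, the dopamine receptor Drd2 rose (0.56, limma adjusted p = 0.0399) and Prl did not pass (0.24), with a summed intensity of 18618 to 19312 with GnRH and 14750 to 18397 in controls. The part of these cells in the values of Ptprn, Pam, Furin and the granins was not tested.

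Counted by the brightest probe set of each gene, 5 of 7 genes had a log2 fold change above 0, against 47.6% of 14217 genes, with a median of 0.19 against -0.0089. All 3 GnRH arrays lay above all controls in 3 of the 7 genes (Furin, Pam and Ptprn), against 8.65% of genes, and below them in 1 (Cpd), against 8.62%. These were also the genes with an unadjusted p under 0.05, against 8.04% of genes higher and 5.17% lower. The same 7 probe sets were those at or above the median brightness, where values tended upward: 51.5% of such probe sets had a log2 fold change above 0, 10.3% had GnRH arrays above all controls and 0.76% rose past the threshold.

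**Figure D1:**
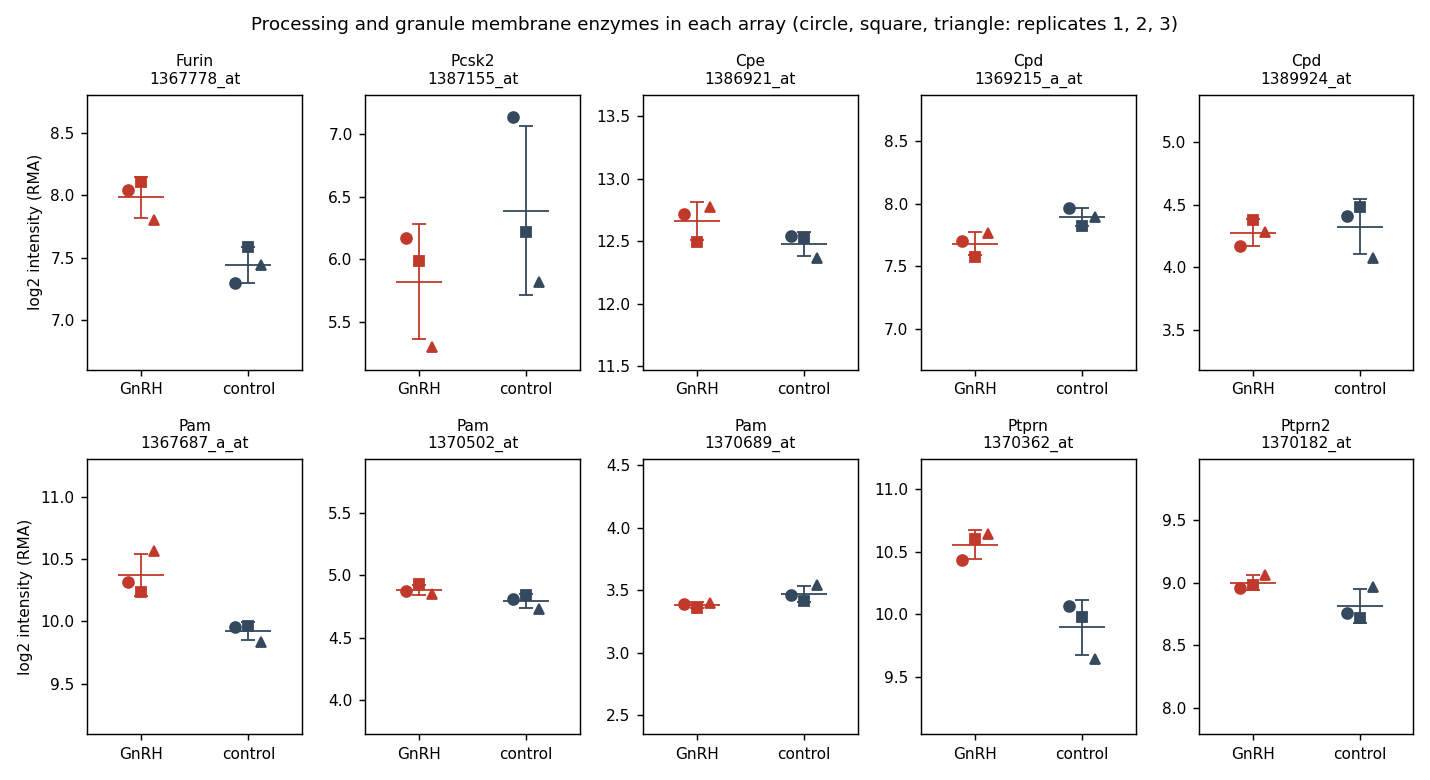
Log2 RMA intensity of the 10 probe sets on each array, with GnRH arrays left (red) and control arrays right (blue); each panel spans the same range of log2 units, and bars are mean and SD (n = 3). The GnRH arrays lie above all controls for Furin, Ptprn and the brightest Pam probe set, while the Pcsk2 panel has the widest spread.

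Among the convertases, Furin was higher with GnRH on every array. Furin, the ubiquitous convertase that cuts growth factor and receptor precursors, had log2 intensities of 8.04, 8.11 and 7.80 with GnRH, against 7.30, 7.59 and 7.45 in controls. The groups did not overlap, and control 3 lay between the other controls. The log2 fold change was 0.54 (95% interval 0.29 to 0.78; 1.45-fold; limma adjusted p = 0.0760), so Furin missed the threshold. Its size was 0.54 without control 3, where it passed (limma adjusted p = 0.0238), and also 0.54 against control 3 alone. Without control 3, however, 4.95% of all probe sets were higher past the threshold, and 3 of the 10 member probe sets were, namely those of Furin, Ptprn and the brightest Pam probe set. The same 3 passed with array weights, in which control 3 counted least (weight 0.298), against 5.68% of all probe sets.

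Pcsk2, the convertase that cuts within ACTH to release alpha-MSH, had the widest spread of the members. Its log2 intensities were 6.17, 5.99 and 5.30 with GnRH and 7.14, 6.22 and 5.82 in controls. Control 3 lay below GnRH arrays 1 and 2, so the groups overlapped. The SDs were 0.46 with GnRH and 0.68 in controls (n = 3 each), and the log2 fold change was -0.57 (95% interval -1.24 to 0.10; limma adjusted p = 0.479). The value rested on single arrays: it was -0.20 without control 1 and -0.31 without GnRH 3, while against control 3 alone it was 5.69e-05.

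Markers of corticotropes and melanotropes were read beside Pcsk2. None of those measured is particular to the melanotropes, where Pcsk2 takes part in making alpha-MSH. Pomc, the precursor that corticotropes and melanotropes make, had log2 intensities of 7.68, 7.67 and 6.09 with GnRH and 8.47, 7.96 and 7.47 in controls. GnRH 3 was the lowest and control 1 the highest array for Pomc, as for Pcsk2. Tbx19, the transcription factor that turns on Pomc, had 7.23, 7.08 and 7.00 with GnRH and 7.58, 7.20 and 7.19 in controls, with the same lowest and highest arrays. Avpr1b, the vasopressin receptor of corticotropes, had 5.95, 6.04 and 5.99 with GnRH and 6.35, 6.25 and 6.14 in controls. Its highest array was also control 1, but its lowest was GnRH 1. These were the 3 measured of 5 listed corticotrope and melanotrope markers, and 0 of them passed the threshold (limma adjusted p = 0.422, 0.487 and 0.301). Their summed linear intensity ran from 259 to 418 with GnRH and from 394 to 628 in controls. Gfap, the glial marker of the posterior lobe, which adjoins the intermediate lobe that holds the melanotropes, also lay lower, at 7.69, 6.47 and 5.76 with GnRH and 7.92, 8.97 and 8.94 in controls (limma adjusted p = 0.0835). The 7 posterior lobe markers had a summed linear intensity of 570 to 833 with GnRH and 868 to 1189 in controls, but they did not run one way. The log2 fold changes of Gfap, Avp and Oxt were -1.97, -0.57 and -0.43, those of the neurofilament genes Nefl, Nefm and Nefh were 0.45, 0.09 and 0.12, and the median of the 7 was -0.05, with 0 past the threshold. The part of such tissue shares in the Pcsk2 values was not tested.

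**Figure D2:**
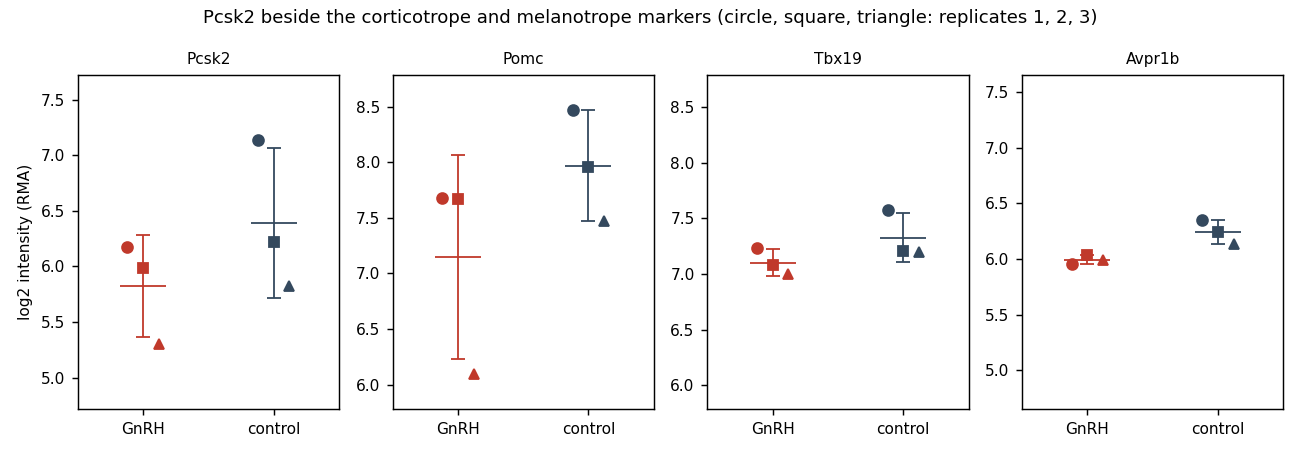
Log2 RMA intensity of Pcsk2, Pomc, Tbx19 and Avpr1b on each array (GnRH left, control right; bars are mean and SD, n = 3; each panel spans the same range). GnRH 3 is the lowest and control 1 the highest array for Pcsk2, Pomc and Tbx19.

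The carboxypeptidases showed small differences in opposite directions, and neither passed the test. Cpe, the carboxypeptidase of dense-core granules, lay at percentile 99.96 of brightness over all probe sets. Its log2 intensities were 12.72, 12.49 and 12.77 with GnRH and 12.54, 12.53 and 12.37 in controls. GnRH 2 lay below controls 1 and 2, so the groups overlapped, and the log2 fold change was 0.18 (95% interval -0.05 to 0.41; limma adjusted p = 0.507).

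Cpd, the related enzyme of the trans-Golgi network, was lower with GnRH on its bright probe set. That probe set had log2 intensities of 7.70, 7.58 and 7.76 with GnRH and 7.97, 7.82 and 7.89 in controls, with no overlap. The log2 fold change was -0.21 (95% interval -0.41 to -0.01; limma adjusted p = 0.377). Against control 3 alone it was also -0.21, but it did not pass in any alternative. The other Cpd probe set was dim, at percentile 14.6 of brightness, and overlapped, with 4.17, 4.38 and 4.28 with GnRH and 4.41, 4.48 and 4.07 in controls. Averaged over both Cpd probe sets, Cpe moved 0.31 further up than Cpd on the log2 scale, and the per-array difference was higher in all 3 GnRH arrays than in all 3 controls. The exact 2-sided permutation test gave p = 0.1, the smallest p that this test can give with 3 against 3.

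Pam, the copper enzyme that amidates peptides and is abundant in pituitary granules, was higher with GnRH on its bright probe set. This probe set, at percentile 99.1 of brightness, had log2 intensities of 10.32, 10.24 and 10.56 with GnRH and 9.96, 9.97 and 9.84 in controls. The groups did not overlap. The log2 fold change was 0.45 (95% interval 0.22 to 0.68; 1.37-fold; limma adjusted p = 0.108). It was 0.41 without control 3, where it passed (limma adjusted p = 0.0422), and 0.54 against control 3 alone. The other Pam probe sets were dim and differed by less than 0.1, in opposite directions, although neither overlapped between groups. The probe set at percentile 22.9 of brightness had 4.87, 4.93 and 4.85 with GnRH and 4.81, 4.85 and 4.73 in controls, a log2 fold change of 0.09. The probe set at percentile 4.97 had 3.39, 3.36 and 3.40 with GnRH and 3.46, 3.42 and 3.54 in controls, a log2 fold change of -0.09. Their limma adjusted p-values were 0.702 and 0.692. Averaged over the 3 probe sets, the difference was 0.15 (limma adjusted p = 0.410), so the size for Pam depended on the probe set. No detection calls come with these values, so the dim probe sets could not be called absent.

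Ptprn, the granule membrane protein with a phosphatase-like domain, was the member that passed the test. Its log2 intensities were 10.43, 10.60 and 10.64 with GnRH and 10.06, 9.98 and 9.64 in controls. The groups did not overlap, and control 3 was the lowest array. Ptprn rose 1.58-fold, a log2 fold change of 0.66 (95% interval 0.40 to 0.93; limma adjusted p = 0.0484). By p-value it ranked 138 among the 144 probe sets past the threshold, so it sits near the edge, and the next members were Furin at rank 254 and Pam at rank 365. The call was kept without control 3 (0.54, limma adjusted p = 0.00920). It was lost without GnRH 1 (limma adjusted p = 0.111), GnRH 2 (0.226), GnRH 3 (0.153), control 1 (0.0679) or control 2 (0.130). Against control 3 alone, an array of the same Xist level as the GnRH arrays, Ptprn was higher by 0.92 and passed, against 0.699% of all probe sets, with the lone control assumed to vary like the GnRH arrays. Its call was also lost in 6 alternatives that keep all arrays, among them the replicate number as a block, where 0.628% of all probe sets were higher past the threshold.

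Ptprn2, its paralogue on the same granules, had log2 intensities of 8.96, 8.99 and 9.07 with GnRH and 8.76, 8.72 and 8.97 in controls. Control 3 lay just above GnRH 1, and the log2 fold change was 0.19 (95% interval -0.02 to 0.40; limma adjusted p = 0.460). Ptprn lay lowest in control 3 and Ptprn2 highest in that control. The per-array difference between Ptprn and Ptprn2 was 1.47, 1.61 and 1.58 on the log2 scale with GnRH and 1.31, 1.26 and 0.67 in controls. The change of Ptprn exceeded that of Ptprn2 by 0.47, with no overlap between groups (exact 2-sided permutation p = 0.1, the smallest that this test can give with 3 against 3). Without control 3 the excess was 0.27, and against control 3 alone it was 0.88, so its size depended on that array.

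**Figure D3:**
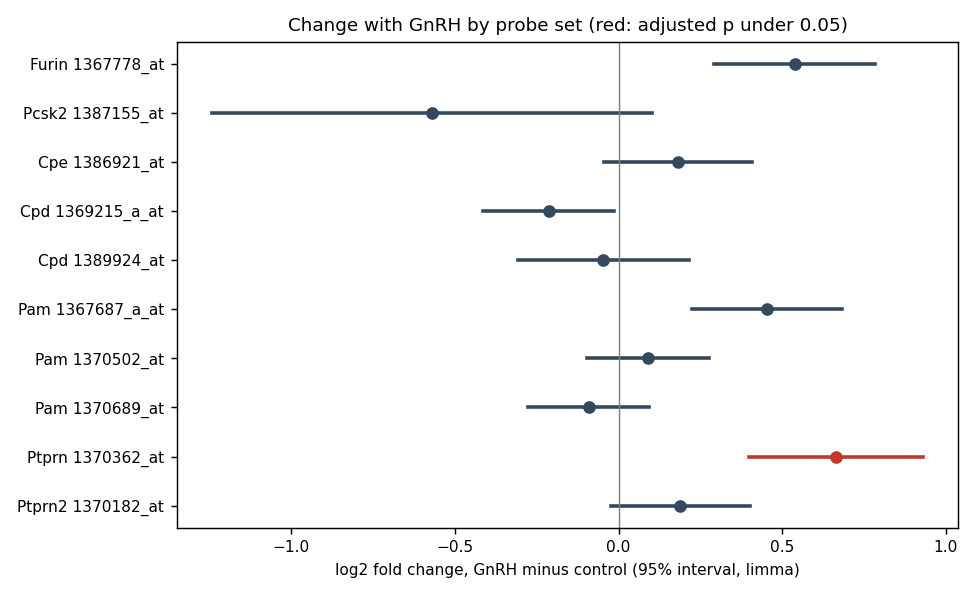
Log2 fold change (GnRH minus control) of the 10 probe sets with 95% intervals from limma (3 arrays per group; red marks adjusted p under 0.05). Ptprn passes at 0.66, the intervals of Furin and the brightest Pam probe set lie above 0 without passing after adjustment, and the Pcsk2 interval is the widest.

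The members did not respond to the choice of arrays alike. When each array was left out in turn, the log2 fold change ran from 0.47 to 0.63 for Furin, from 0.36 to 0.52 for the brightest Pam probe set and from 0.54 to 0.75 for Ptprn. For Pcsk2 it ran from -0.86 to -0.20. In each of these 4 probe sets the direction was the same in all 6 fits. Control 3 differed from the mean of controls 1 and 2 by -0.86 for Pcsk2, -0.38 for Ptprn and 0.23 for Ptprn2 on the log2 scale, but by less than 0.01 for Furin and the bright Cpd probe set.

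**Figure D4:**
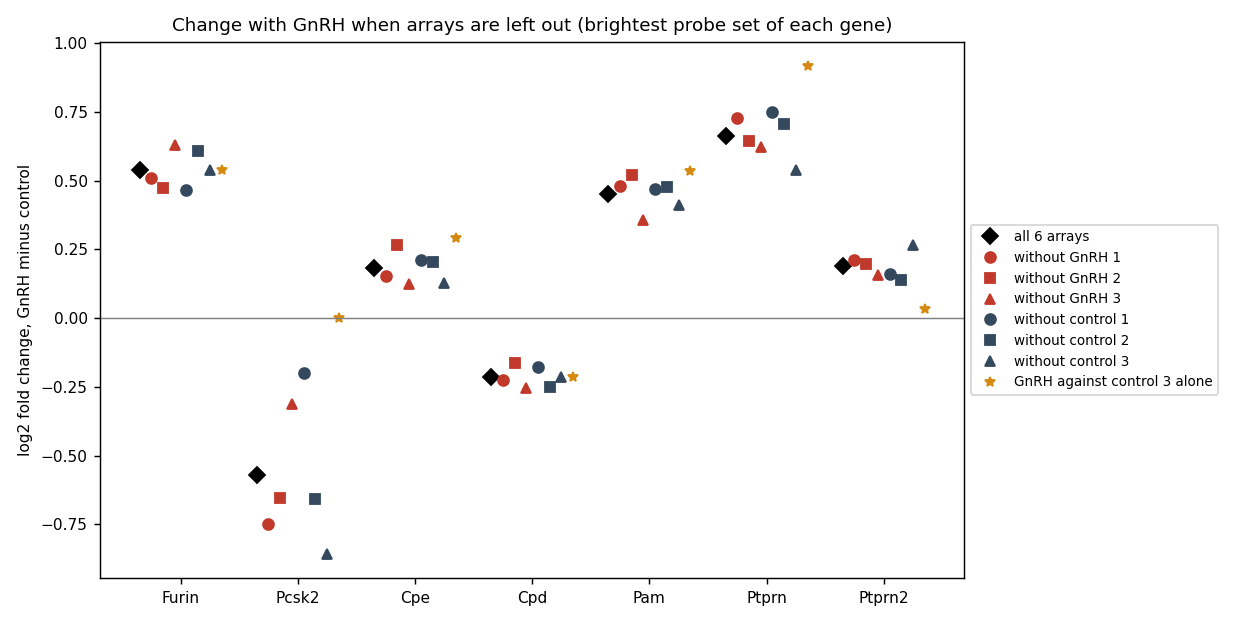
Log2 fold change (GnRH minus control) of the brightest probe set of each gene with all 6 arrays (diamond), with each array left out (red, GnRH arrays; blue, control arrays; circle, square and triangle for replicates 1, 2 and 3) and against control 3 alone (star). Furin stays near 0.5, whereas Pcsk2 runs from -0.86 to 5.69e-05 and Ptprn from 0.54 to 0.92.

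Over the 6 arrays, the members' patterns were described by correlation, without a test, since the arrays share groups and the control 3 division. Ptprn and Pam followed each other most closely among pairs of members that moved the same way (Pearson r = 0.92, n = 6 arrays), followed by Cpe and Pam (r = 0.86). Furin and Cpd ran opposite ways (r = -0.97). Among all other named genes, the patterns most like that of Ptprn were those of Tmem184b (r = 0.996), Atf6b (r = 0.995) and Hnrnpul1 (r = 0.995). For Pam they were Add1 (r = 0.997), Rai1 (r = 0.992) and Map3k12 (r = 0.990), and for Furin they were Mark3 (r = 0.993), Spag7 (r = 0.990) and H2ax (r = 0.988). For Cpe they were Cd96 (r = 0.989), Ap1m1 (r = 0.987) and Slc7a4 (r = 0.983). Each of these was picked from 14216 genes searched over the same 6 arrays.

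Other convertases and their regulators showed 0 of 8 measured members past the threshold in either direction, by limma over all probe sets, against 0.556% of all genes higher and 0.0492% lower. At an unadjusted p under 0.05, 2 of the 8 were higher and 0 lower, against 8.04% and 5.17% of all genes. Pcsk1n encodes proSAAS, an inhibitor of Pcsk1. It had log2 intensities of 9.06, 9.96 and 8.14 with GnRH and 7.57, 7.83 and 7.58 in controls, with no overlap but a wide spread among GnRH arrays (log2 fold change 1.39 ± 0.34, SE; limma adjusted p = 0.131). Pcsk6, the convertase PACE4, had 9.71, 10.25 and 9.93 with GnRH and 9.00, 9.01 and 9.79 in controls. Control 3 lay among the GnRH arrays, and the log2 fold change was 0.70 (limma adjusted p = 0.213) but 0.17 against control 3 alone. Scg5, the chaperone that Pcsk2 needs to mature, had a log2 fold change of 0.10 (limma adjusted p = 0.697), and Mbtps1, the site-1 protease of the Golgi, 0.06 (limma adjusted p = 0.844). The list median was 0.05.

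Other exopeptidases that remove basic residues, and related carboxypeptidases, also had 0 of 7 past the threshold, with a median of -0.0062. Rnpep, an aminopeptidase that removes basic residues from the other end of a peptide, had a log2 fold change of 0.19 (limma adjusted p = 0.463). Cpxm2, a carboxypeptidase-like protein, had -0.29 (limma adjusted p = 0.338). At an unadjusted p under 0.05, 0 of the 7 were higher and 1 was lower, against 8.04% and 5.17% of all genes. The shares of all genes past the threshold were 0.556% higher and 0.0492% lower.

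Partners of Pam, copper suppliers and other peptide-modifying enzymes had 0 of 9 past the threshold and a median of -0.06. At an unadjusted p under 0.05, 1 was higher and 1 lower, against 8.04% and 5.17% of all genes. Past the threshold, the shares of all genes were 0.556% higher and 0.0492% lower. Rassf9, which was first described as a protein that binds the cytosolic tail of Pam, had log2 intensities of 4.30, 4.26 and 4.21 with GnRH and 4.61, 4.72 and 4.48 in controls. It lay lower on all 3 GnRH arrays than in all controls, as did 8.62% of all genes, with a log2 fold change of -0.35 (limma adjusted p = 0.165). Its probe set was dim, at percentile 16.4 of brightness. Qpctl, a Golgi enzyme that forms pyroglutamate at peptide ends, had 0.24 (limma adjusted p = 0.337), the copper transporter Slc31a1 had 0.21 and the tyrosine sulphotransferase Tpst1 had -0.20 (limma adjusted p = 0.475 and 0.464).

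Subunits of the vacuolar proton pump, which acidifies granules so that the convertases work, had 0 of 17 past the threshold. Their log2 fold changes were small, with a median of 0.10 and 15 of 17 above 0, and at an unadjusted p under 0.05 1 was higher and 0 were lower. Over all genes, 47.6% were above 0, 8.04% were higher and 5.17% lower at that p, and 0.556% and 0.0492% passed the threshold. The GnRH mean exceeded the mean of controls 1 and 2 for 16 of the 17 subunits but exceeded control 3 for 2 of the 17. The median difference was 0.19 against controls 1 and 2 and -0.10 against control 3. Over all genes these medians were -0.01 and -0.0061. The GnRH mean exceeded that of controls 1 and 2 for 6768 of all 14217 genes and exceeded control 3 for 6868. Atp6v0d1, a subunit of the membrane sector, illustrated this, with 10.08, 10.31 and 10.15 with GnRH and 9.63, 9.70 and 10.15 in controls 1, 2 and 3 (log2 fold change 0.35; limma adjusted p = 0.334). Atp6v0a2, Atp6ap1 and Atp6ap2 had log2 fold changes of 0.24, 0.21 and 0.18.

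The granins, the acidic cargo proteins that are packed with the hormones, had 1 of 5 members rise and 0 fall, against 0.556% of all genes higher and 0.0492% lower, with a median of 0.59 against -0.0089. Chgb, chromogranin B, had log2 intensities of 12.80, 12.65 and 12.81 with GnRH and 12.13, 12.02 and 12.34 in controls. It rose by 0.59 ± 0.10 (SE; limma adjusted p = 0.0449). Without control 3 the call was kept, and it was lost without any other single array, against control 3 alone, and after cyclic loess, median centring, a pseudocount of 16 or a variance trend on intensity (limma adjusted p from 0.0583 to 0.216 in those last 4). All 3 GnRH arrays also lay above all controls for Scg3 (log2 fold change 0.60), a granin that binds the granule membrane, for Vgf (1.26) and for Scg2 (0.23). Their limma adjusted p-values were 0.138, 0.152 and 0.416. With Chgb, 4 of the 5 granins lay above all controls in this way, against 8.65% of all genes. Vgf had 7.39, 7.91 and 6.19 with GnRH and 5.86, 5.98 and 5.85 in controls, and its order among GnRH arrays was that of Pcsk1n. Chga, chromogranin A, named after its values were seen as the 1 granin below 0, had 9.91, 9.62 and 10.59 with GnRH and 11.05, 11.08 and 9.43 in controls. The log2 fold change of Chga was -0.48, with -1.03 against controls 1 and 2 and 0.62 against control 3.

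The peptide precursors that pass through the pathway showed 0 of 18 higher and 1 lower past the threshold, a median of -0.14 and 2 of 18 log2 fold changes above 0. The shares over all genes were 0.556% higher, 0.0492% lower and 47.6% above 0. At an unadjusted p under 0.05, 0 of 18 were higher and 6 lower, against 8.04% and 5.17% of all genes. The median was -0.29 against controls 1 and 2, with 3 of 18 above 0, and -0.05 against control 3, with 7 of 18 above 0. Of all 14217 genes, 6768 were above 0 against controls 1 and 2 and 6868 against control 3. Calcb, which encodes beta-CGRP, an amidated peptide, had log2 intensities of 5.76, 5.72 and 5.92 with GnRH and 6.39, 6.43 and 6.21 in controls, and fell by 0.55 ± 0.10 (SE; limma adjusted p = 0.0449). Its call was kept without control 3 and lost without any other single array, against control 3 alone, and after cyclic loess, median centring, quantile normalization, a pseudocount of 16 or the replicate block (limma adjusted p from 0.0520 to 0.0657 in those last 5). Penk, the enkephalin precursor, had 9.76, 9.09 and 9.13 with GnRH and 10.19, 10.28 and 10.98 in controls. The groups did not overlap, and the log2 fold change was -1.16 ± 0.22 (SE; limma adjusted p = 0.0554). Avp and Oxt, the posterior lobe peptides vasopressin and oxytocin, had -0.57 and -0.43 (limma adjusted p = 0.264 and 0.347). They are 2 of the 7 posterior lobe markers given above, whose median was -0.05.

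**Figure D5:**
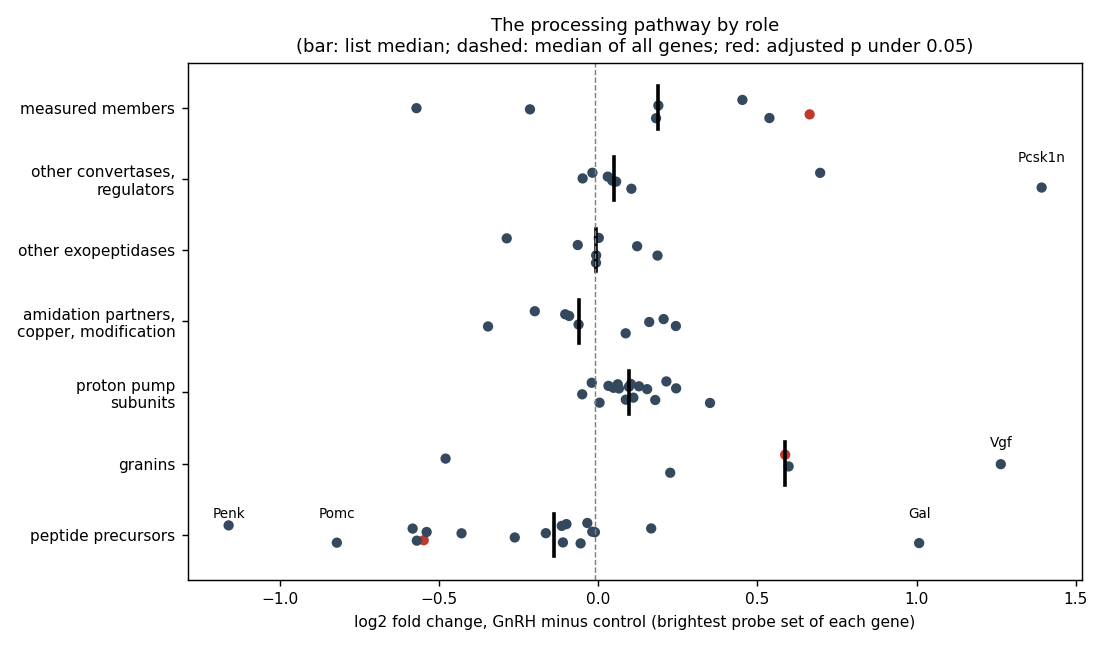
Log2 fold change (GnRH minus control) of the measured members and of each list of pathway genes, by the brightest probe set of each gene; bars are list medians, the dashed line is the median of all genes and red marks an adjusted p under 0.05. Ptprn among the members, Chgb among the granins and Calcb among the precursors pass, and the proton pump subunits lie close together around 0.10.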

How the data were processed

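Total RNA of rat pituitary organ cultures was hybridised as biotin-labelled cRNA to 1-colour arrays, per the labels' protocols. The deposited values are intensities on a linear scale; the submitters' processing notes name RMA, with no version or filter. RMA usually makes array distributions alike and is usually reported as log2; here the medians of the 6 arrays ran from 64.5 to 67.0. The number of arrays limits the precision.

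Values were turned into log2 with no pseudocount or filter. Gene names came from the supplied array annotation, updated by gene identifier to GRCr8 symbols. Of 31042 probe sets, 20826 had 1 symbol, 436 had several and the rest were unnamed here. The test was limma's moderated 2-sided test (lmFit and eBayes, limma 3.58.1, R 4.3.3) without covariates, tried on simulated data, with Benjamini-Hochberg adjustment over all probe sets. Differences between paralogues used the exact permutation test over samples. All member probe sets were reported, and up to 4 genes with the smallest p-values were named from each of 6 pathway lists, each gene by its brightest probe set. Of 67 listed genes 64 were measured. For each member the 3 genes with the highest Pearson r were found. The members, lists and alternatives were chosen with earlier results of these data known.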

Additional observations from a re-analysis of the deposited data

How the results depend on the processing

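Of 164 recomputed values of member probe sets, 143 kept direction and side of the threshold, 11 lost the call (all Ptprn), 4 gained one (Furin and the brightest Pam probe set, each without control 3 and with array weights, where 4.95% and 5.68% of all probe sets were higher past the threshold) and 6 turned direction. The dim Cpd probe set turned to 0.0055 with quantile normalization, 0.0041 with cyclic loess, 0.0085 without GnRH 1, 0.034 without control 2 (from -0.17 to 0.034 over the fits without 1 array) and 0.20 against control 3 alone, and Pcsk2 to 5.69e-05 in that last comparison. Ptprn also lost its call with cyclic loess (limma adjusted p = 0.221), quantile normalization (0.158), an intensity trend (0.0724), a pseudocount of 16 (0.0825), gene means (0.0527) and the replicate block (0.0601). Of list genes, Mbtps1 turned to -0.0090 with quantile normalization, -0.013 without control 2 (from -0.013 to 0.10 without 1 array) and -0.039 against control 3 alone, where also Atp6v0a2 turned to -0.0046, Atp6ap1 to -0.056 and Atp6ap2 to -0.052.

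The count of all probe sets past the threshold, 144 in the analysis as reported, was 90 with quantile normalization, 93 with cyclic loess, 3020 with array weights, 74 with a pseudocount of 16, 265 against control 3 alone and 86 of 14217 genes with gene means; without 1 array it ran from 20 to 2309, the highest without control 3 and the lowest without GnRH 2. The count of members past the threshold, 1 as reported, was 0 with cyclic loess, quantile normalization, an intensity trend, a pseudocount of 16, gene means or the replicate block, 3 with array weights, and 0 to 3 without 1 array. The count of pathway list genes, 2 as reported, was 0 with median centring or a pseudocount of 16, 1 with cyclic loess, quantile normalization, an intensity trend or control 3 alone, 13 with array weights, and 0 to 13 without 1 array. The causes were not tested.

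Whether the replicate numbers pair the samples is unknown. The deviations of same-numbered arrays from their group means correlated at 0.16, -0.05 and 0.16, and those of differently numbered arrays at -0.23 to 0.18. Deviations from a mean of 3 arrays are not independent, so these values cannot decide it. With the replicate number as a block, 215 probe sets, 0 members and 3 pathway list genes passed. Those 3 genes, all higher, were Pcsk1n, Chgb and Scg3. The differences between Ptprn and Ptprn2 and between Cpe and Cpd kept their direction under every alternative run for them. The planned difference between Pcsk1 and Pcsk2 was not run, as Pcsk1 has no probe set here.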

Other observations

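Several genes of the secretory pathway set control 3 apart from both other controls more than they set GnRH arrays apart from controls. Gal, the galanin precursor, had log2 intensities of 8.66, 10.63 and 9.24 with GnRH and 7.81, 7.85 and 9.85 in controls 1, 2 and 3. Tac1, the substance P precursor, had 6.43, 6.27 and 6.26 with GnRH and 7.31, 7.51 and 5.88 in controls. Neither passed the test (limma adjusted p = 0.499 and 0.508). Both genes were picked after their values were seen, and the part of the Xist division in them was not tested.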
